A study of Solanum lycopersicum with 2 samples.

Results

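The 7 loci described here encode ethylene response factors (ERFs) of tomato, and they were chosen by family and identifier with earlier results of these data known. No measured value enters the rule itself. They are ERF.E4 (Solyc01g065980.2), ERF.E2 (Solyc06g063070.2), ERF.E1 (Solyc09g075420.2), ERF.B1 (Solyc05g052040.1), ERF.B3 (Solyc05g052030.1), Pti4 (Solyc05g052050.1) and ERF1 (Solyc05g051200.1). All 7 were found among the 34725 gene identifiers of the expression table, and all 7 had a mean level of at least 1 RPKM, as did 17287 genes in all. RPKM is the number of reads scaled to the length of the gene model and to the size of the library. The study sequenced total RNA of red ripe fruit from 1 line that overexpresses ALMT9 and from the wild type, to look for genes regulated along with ALMT9. ALMT9 encodes a malate channel, and malate is a main acid of tomato fruit. Fruit of both genotypes was picked 49 days after flowering from 3 plants per genotype, and each genotype is represented by 1 library. Whether the fruit of the 3 plants was pooled, the cultivar and the promoter of the transgene are not stated in the labels. Without replicates no test was run, so each difference below is between 2 libraries and not shown to be one between genotypes.

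ERFs are plant transcription factors with one AP2 DNA-binding domain. Tomato fruit ripen under the control of ethylene. The hormone is sensed by receptors, and the signal passes through CTR1 and EIN2 to the EIN3-like (EIL) factors, which switch on ERF genes. ERFs in turn bind promoters of ripening and defence genes, many of them through a short GC-rich element called the GCC box, and the family is divided into classes with letters. Some ERFs activate their targets and others repress them. In bulk fruit RNA, fewer cells that express a gene and less RNA of it per cell cannot be told apart.

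The library labelled as overexpression held more ALMT9 RNA. The locus entered for ALMT9, Solyc06g072910.2, had 20.5 RPKM in the overexpression library and 0.0742 RPKM in the wild type, from at least 270 reads and at least 1 read. Recovered library totals were 19252026 reads for overexpression and 19736832 reads for the wild type. Of the 4 loci entered as ripe fruit markers, the lowest was PG2a, a polygalacturonase of softening fruit, with 657 RPKM in the overexpression library and 554 RPKM in the wild type. E8 had 2011 RPKM in the overexpression library and 3979 RPKM in the wild type, and PSY1, the phytoene synthase of red fruit, had 1614 RPKM in the overexpression library and 2408 RPKM in the wild type. E4 had 1227 RPKM in the overexpression library and 1703 RPKM in the wild type. Of the 4 markers, 3 were lower in the overexpression library, against 48.8% of the 17287 genes with a mean of at least 1 RPKM. Loci entered for small Rubisco subunits and light-harvesting proteins of green tissue summed to 23.5 RPKM over 9 loci in the overexpression library and to 17.6 RPKM in the wild type. Most of each sum came from 1 small Rubisco subunit locus, Solyc03g034220.2, with 18.8 RPKM under overexpression and 13.8 RPKM in the wild type. Of the 9 loci, 6 had a mean below 1 RPKM.

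The names of the 7 loci were set beside a RefSeq gene table of tomato (assembly SLM_r2.1), which carries no identifiers of the kind used in the expression table. A gene with the same name or synonym was found for 7 of 7 loci, on the chromosome numbered in the identifier in each case. RefSeq lists ERF.B3 as ERF4, ERF.B1 as DDTFR10A, Pti4 as PTI4, ERF.E1 as ERF2, ERF.E2 as JERF1 and ERF.E4 as ERF6. ERF1 was matched by the synonym TERF1, and its entry also carries the synonym SlERF-C1, which puts it in class C. Pti4 carries the synonym Sl-ERF-A3, of class A, and JERF1 carries Sl-ERF-A-3 beside SlERF-E2. The identifiers of ERF.B3, ERF.B1 and Pti4 are consecutive on chromosome 5, and RefSeq likewise places 0 protein-coding genes between the first and the second and 0 between the second and the third. The build and gene models behind the expression table were not stated in the labels or the file, so no coordinates, exons or UTRs are stated.

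Class E supplied most of the RNA of these loci. ERF.E4 and ERF.E2 together held 88.9% of the summed RPKM of the 7 loci in the overexpression library and 87.7% in the wild type. The sum itself was 1919 RPKM in the overexpression library and 2371 RPKM in the wild type. The range among members was wide, the highest locus standing 125 times above the lowest in the overexpression library and 61.6 times above it in the wild type.

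**Figure D1:**
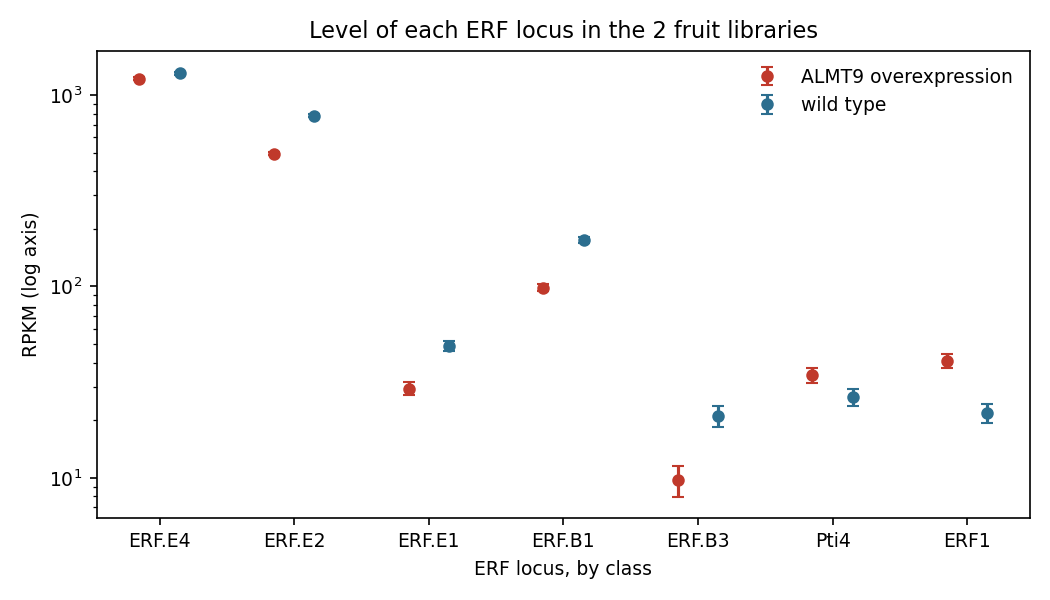
RPKM (log axis) of the 7 ERF loci in the ALMT9 overexpression library (red) and the wild type library (blue), 1 library each; points are values and bars are 95% counting intervals, which cover counting error only. The 3 class E and 2 class B loci sit lower in the overexpression library, by little for ERF.E4, and Pti4 and ERF1 sit higher.

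The order of the levels was the same in both libraries at its top and bottom, and it changed in between. ERF.E4, ERF.E2 and ERF.B1 held ranks 1, 2 and 3 in each library, and ERF.B3 held rank 7. ERF1 was at rank 4 in the overexpression library and at rank 6 in the wild type, and ERF.E1 was at rank 6 in the overexpression library and at rank 4 in the wild type. Pti4 stayed at rank 5. Neighbours in this order were separated by more than counting error except in 4 places, where their 95% counting intervals met. In the overexpression library, ERF1 (37.5 to 44.6 RPKM) met Pti4 (31.4 to 37.7 RPKM), and Pti4 met ERF.E1 (27.0 to 31.5 RPKM). In the wild type, ERF1 (19.3 to 24.4 RPKM) met ERF.B3 (18.5 to 23.8 RPKM) and Pti4 (23.7 to 29.1 RPKM).

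ERF.E4 was the most abundant of the 7 and the least different between the libraries. In tomato, lowering this gene, also called ERF6, raises carotenoids and ethylene in fruit. It had 1214 RPKM in the overexpression library and 1297 RPKM in the wild type, above 99.9% of all genes in both. The ratio of overexpression over wild type RPKM was 0.936, with an exact (Clopper-Pearson) 95% counting interval of 0.914 to 0.958. On the log2 scale used to compare genes, log2((overexpression + 1)/(wild type + 1)), the difference was -0.10. This lay at percentile 41.3 of the differences of all genes tested, close to the middle. Class E ERFs belong with the group VII ERFs of Arabidopsis, which are known for a protein turnover that depends on oxygen, a step that RNA levels do not show.

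ERF.E2 and ERF.E1 were lower in the overexpression library by similar ratios, at very different levels. ERF.E2, or JERF1, was named as a jasmonate and ethylene responsive factor. It had 493 RPKM in the overexpression library and 781 RPKM in the wild type, for a ratio of 0.63 (counting interval 0.618 to 0.643). ERF.E1, first described as LeERF2, had 29.2 RPKM in the overexpression library and 48.7 RPKM in the wild type, for a ratio of 0.599 (interval 0.543 to 0.661). Both intervals lay below that of ERF.E4, so the class did not differ by 1 common factor. ERF.E2 stood 16.9 times above ERF.E1 in the overexpression library and 16.0 times above it in the wild type. ERF.E4 stood 2.46 times above ERF.E2 in the overexpression library and 1.66 times above it in the wild type. Such ratios within a library do not depend on how the libraries were scaled. The log2 differences were -0.66 for ERF.E2 and -0.72 for ERF.E1, at percentiles 10.1 and 8.8 of all genes tested.

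The class B loci had the lowest ratios of the 7. ERF.B3, known in tomato from a dominant repressor form that alters fruit ripening, had 9.69 RPKM in the overexpression library and 21.1 RPKM in the wild type. Its ratio was 0.46 (counting interval 0.365 to 0.576), from at least 113 reads in the overexpression library and at least 252 in the wild type. The log2 difference of -1.05 was just past 2-fold and lay at percentile 3.8 of all genes tested. ERF.B1 was lower as well, with 98.4 RPKM in the overexpression library and 175 RPKM in the wild type. The ratio of ERF.B1 was 0.563, with an interval of 0.533 to 0.594, and its log2 difference was -0.82, at percentile 6.6. The counting intervals of the ERF.B3 and ERF.B1 ratios overlapped. Both also overlapped that of ERF.E1 (0.543 to 0.661), so counting error does not separate class B from that class E locus.

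Pti4 and ERF1 were the 2 loci with higher values in the overexpression library. Pti4 interacts with Pto, the kinase that gives tomato resistance to Pseudomonas syringae, and binds the GCC box of pathogenesis-related genes. It had 34.4 RPKM in the overexpression library and 26.3 RPKM in the wild type, for a ratio of 1.31 (counting interval 1.14 to 1.5). ERF1, studied as TERF1 for its effect on ethylene responses when expressed in tobacco, had 40.9 RPKM in the overexpression library and 21.8 RPKM in the wild type. Its ratio was 1.88 (interval 1.63 to 2.18), the highest among the 7 loci and not past 2-fold on the log2 scale with a pseudocount of 1. Log2 differences were 0.37 for Pti4 and 0.88 for ERF1, at percentiles 74.8 and 90.3 of all genes tested. ERF1 stood 4.23 times above ERF.B3 in the overexpression library and 1.03 times above it in the wild type.

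Counted together, 1 of the 7 loci, ERF.B3, was at least 2-fold lower in the overexpression library and 0 were at least 2-fold higher. Among all genes tested, 4.30% were at least 2-fold lower, 8.09% at least 2-fold higher and 12.4% either. A count of 1 in 7 is near that background. With a pseudocount of 5 in place of 1, ERF.B3 had a difference of -0.83 and the count was 0, against 5.84% of all genes tested. At 1.5-fold, 5 of the 7 loci were apart, 4 lower and 1 higher, against 28.8% of all genes tested, and at 4-fold 0 were, against 2.52%. Values lay below 0 on the log2 scale for 5 of the 7 loci, against 48.8% of all genes tested, and the median of the 7 was -0.66, against 0.016 for all genes. That median is the value of ERF.E2. The counting interval of the ratio excluded 1 for 7 of 7 loci, as it did for 62.3% of all genes tested, so at these depths counting error is small for many genes. The difference between fruits or library preparations of the same genotype was not measured.

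**Figure D2:**
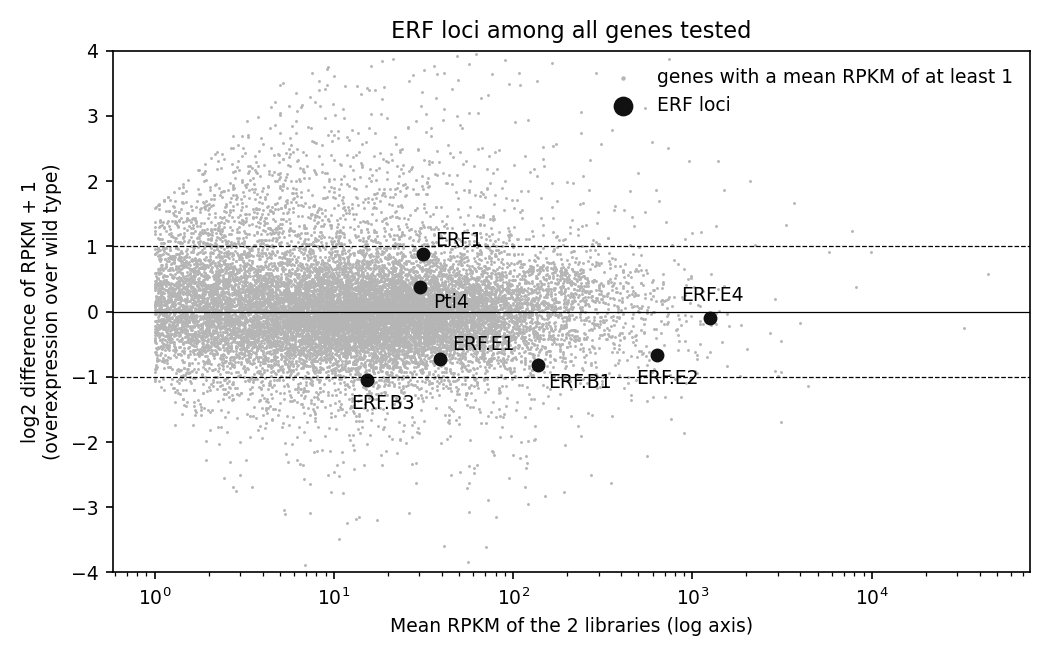
Each grey point is a gene with a mean RPKM of at least 1, placed by its mean RPKM (log axis) and its log2 difference of RPKM + 1, overexpression over wild type; black points are the 7 ERF loci, dashed lines mark 2-fold, and 30 genes lie outside the plotted range. ERF.B3 at -1.05 is the locus past a dashed line, and ERF.E4 lies near 0 at the high end of expression.

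The consecutive loci on chromosome 5 did not differ in the same direction. ERF.B3 and ERF.B1 had ratios of 0.46 and 0.563, while Pti4, the next identifier, had a ratio of 1.31. Within a library, the level of Pti4 was 0.35 times that of ERF.B1 under overexpression and 0.15 times that of ERF.B1 in the wild type. The flanking loci were closer to equal between libraries than the class B loci. The nearest identifier before ERF.B3, Solyc05g052020.2, had 10.8 RPKM in the overexpression library and 12.1 RPKM in the wild type, with an interval of the ratio of 0.759 to 1.05. Further before it, Solyc05g052010.2 and Solyc05g052000.2 were also lower in the overexpression library. Their ratios were 0.822 (interval 0.684 to 0.988) and 0.8 (interval 0.716 to 0.893). After Pti4, Solyc05g052060.1 was listed at 0 in both libraries, and Solyc05g052070.2 had 50.6 RPKM in the overexpression library and 49.3 RPKM in the wild type, with an interval of 0.944 to 1.12.

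ERF.E1 lies close to an ethylene receptor gene. Its second neighbour by identifier, Solyc09g075440.2, was entered for NR (Never-ripe, the receptor ETR3), and RefSeq places 1 protein-coding gene between the genes of these names. NR had 144 RPKM in the overexpression library and 233 RPKM in the wild type, for a ratio of 0.618, and its interval of 0.604 to 0.633 lies within that of ERF.E1. The identifier between them, Solyc09g075430.2, differed in the other direction, with 519 RPKM in the overexpression library and 352 RPKM in the wild type. ERF1 also had a neighbour on the other side of 0, the third identifier after it, Solyc05g051230.2, with 19.2 RPKM in the overexpression library and 38.1 RPKM in the wild type. ERF.E2 had Solyc06g063060.2 directly before it, at 21.4 RPKM in the overexpression library and 21.3 RPKM in the wild type.

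Of the 3 identifiers on either side of ERF.E4, the most abundant member, 5 had at most 0.169 RPKM in either library. The other, Solyc01g065950.1, was at 12.0 RPKM in the overexpression library and 4.93 RPKM in the wild type. Over all 7 loci, 30 flanking identifiers that are not members were looked at, 3 on each side. Of these, 16 had a mean of at least 1 RPKM, with a median log2 difference of -0.21 and values between -0.95 and 1.14. Of these 16, 1 was past 2-fold, Solyc01g065950.1, against 12.4% of all genes tested. Reads shared between similar ERF genes, or between overlapping genes, could not be separated in these values, since the counting rules are not given.

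**Figure D3:**
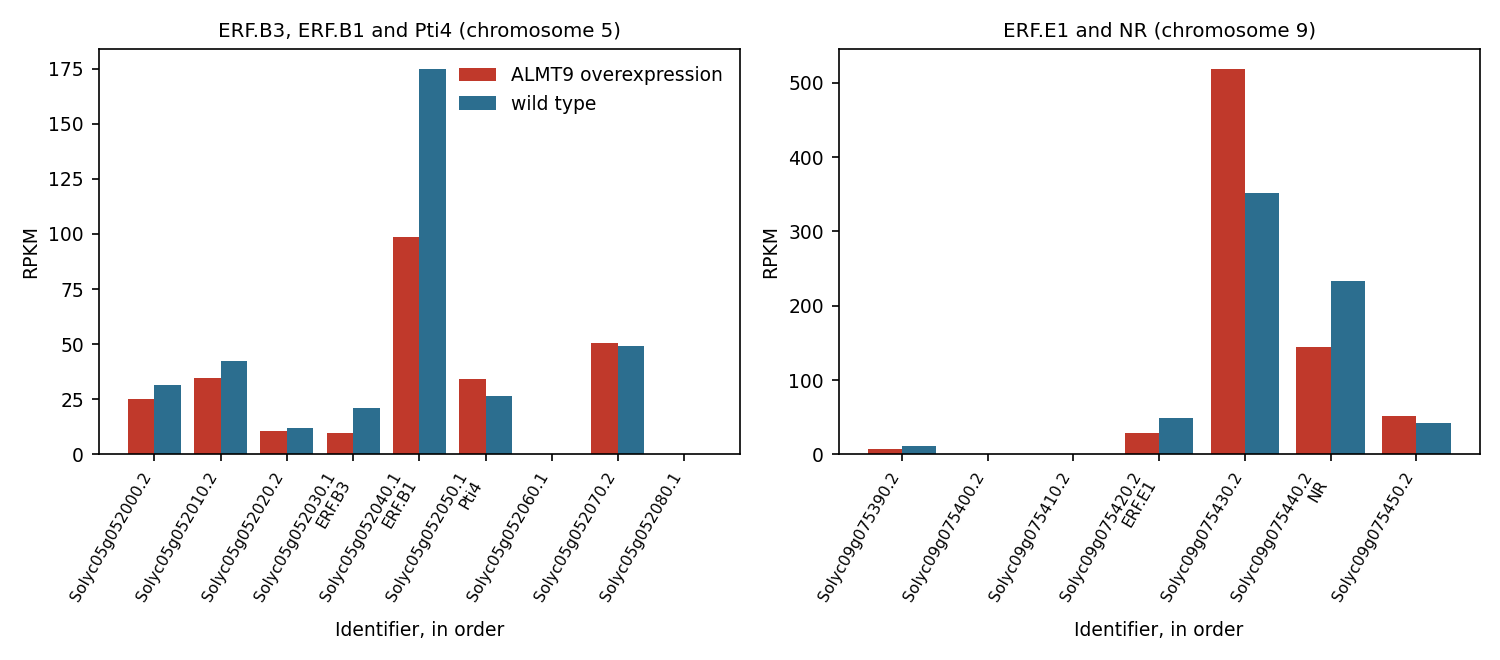
RPKM in the ALMT9 overexpression library (red) and the wild type library (blue) for identifiers in order around ERF.B3, ERF.B1 and Pti4 (left) and around ERF.E1 (right). On the left the class B loci are lower and Pti4 is higher in the overexpression library; on the right ERF.E1 and NR are lower and the identifier between them, Solyc09g075430.2, is higher.

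Upstream of the ERFs, the loci entered for ethylene synthesis stood higher in the overexpression library and the signalling loci stayed within 2-fold. Of 19 loci, 4 were at least 2-fold higher, 0 were at least 2-fold lower, against 8.09% and 4.30% of all genes tested, and the median log2 difference was 0.39. The 4 were ACO1, ACS2, ACO4 and ACO3, enzymes that make the ethylene precursor ACC (ACS) or turn it into ethylene (ACO). ACO1 was the highest of the list, with 2363 RPKM in the overexpression library and 648 RPKM in the wild type. ACS2 had 993 RPKM in the overexpression library and 305 RPKM in the wild type. Differences of the 6 receptor loci lay between -0.69 and 0.58, and those of the 8 loci for CTR1, EIN2, EIL factors and EBF proteins lay between -0.25 and 0.62. The EIL factors bind ERF promoters, and EBF proteins mark EIL factors for breakdown.

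Among the EIL loci, EIL1, EIL2 and EIL4 had higher values in the overexpression library, and the interval of EIL3 spanned 1. EIL1 had 117 RPKM in the overexpression library and 76.0 RPKM in the wild type, for a ratio of 1.54 (counting interval 1.47 to 1.62). EIL2 had 19.6 RPKM in the overexpression library and 12.8 RPKM in the wild type, for a ratio of 1.53 (interval 1.33 to 1.78). EIL4 had 146 RPKM in the overexpression library and 99.0 RPKM in the wild type. EIL3 had 93.6 RPKM in the overexpression library and 93.9 RPKM in the wild type, with an interval of 0.953 to 1.04. EBF1 had 69.2 RPKM in the overexpression library and 82.2 RPKM in the wild type, for a ratio of 0.841, and EBF2 had 24.2 RPKM in the overexpression library and 22.9 RPKM in the wild type, with an interval of the ratio that spanned 1. Whether these differences are related to those of the 7 ERF loci was not tested.

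Among other AP2/ERF loci, more of those past 2-fold were higher than lower in the overexpression library. Of 30 such loci listed, 21 had a mean of at least 1 RPKM, and 7 of these were at least 2-fold higher and 1 was at least 2-fold lower, against 8.09% and 4.30% of all genes tested. The median log2 difference of the 21 loci was 0.05. At 1.5-fold, 10 of the 21 were apart, 7 higher and 3 lower. So were 5 of the 7 ERF loci described here and 28.8% of all genes tested. The shares of both lists thus change order with the threshold. The difference between the lists was not tested. The largest difference was at Pti5 (Solyc02g077370.1), like Pti4 a partner of Pto, with 109.5 RPKM in the overexpression library and 18.6 RPKM in the wild type. The ratio of Pti5 was 5.9, with a counting interval of 5.03 to 6.96. Pti6 (Solyc06g082590.1), another Pto partner, had 27.1 RPKM in the overexpression library and 7.39 RPKM in the wild type. ERF.A1 (Solyc08g078180.1) had 27.2 RPKM in the overexpression library and 5.61 RPKM in the wild type. The lower locus was ERF.B2 (Solyc03g093560.1), with 37.9 RPKM in the overexpression library and 112 RPKM in the wild type, a ratio of 0.338.

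The remaining loci past 2-fold were all higher in the overexpression library. ERF.A2 (Solyc03g093610.1) had 4.35 RPKM in the overexpression library and 1.53 RPKM in the wild type, and ERF.H1 (Solyc06g065820.2) had 3.87 RPKM in the overexpression library and 0.785 RPKM in the wild type. Solyc08g078170.1 had 6.04 RPKM in the overexpression library and 1.35 RPKM in the wild type, and Solyc04g071770.2 had 50.7 RPKM in the overexpression library and 21.8 RPKM in the wild type. A minimum mean of 5 RPKM left 5 of 15 loci past 2-fold, against 11.0% of all genes at that level. The highest locus of the list, ERF.F2 (Solyc07g064890.1), had 263 RPKM in the overexpression library and 302 RPKM in the wild type. AP2a, an AP2 factor that limits ethylene synthesis in ripening fruit, had 192 RPKM in the overexpression library and 208 RPKM in the wild type.

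**Figure D4:**
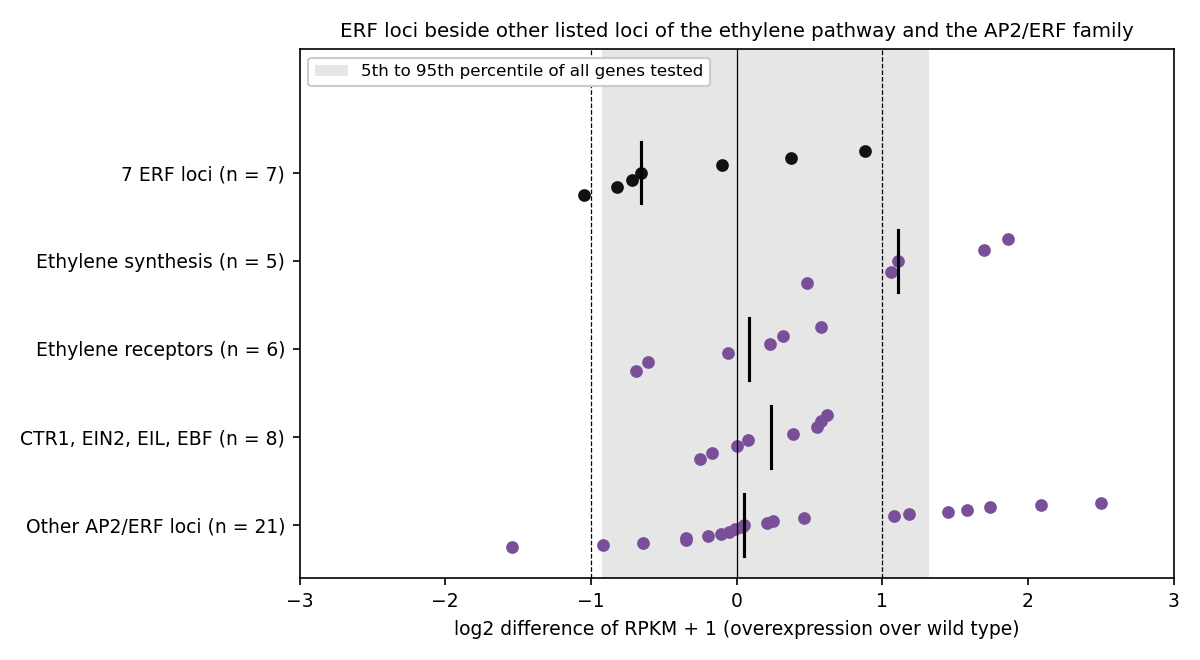
Log2 difference of RPKM + 1, overexpression over wild type, for the 7 ERF loci (black) and for listed loci of ethylene synthesis, receptors and signalling and of the AP2/ERF family with a mean RPKM of at least 1 (purple); short vertical bars are medians, dashed lines mark 2-fold, and the grey band spans the 5th to 95th percentile of all genes tested, -0.93 to 1.32. The median of the 7 loci is -0.66, that of the synthesis loci is 1.11, and other AP2/ERF loci reach from -1.54 to 2.50.

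Set out by class, the 7 loci and the other named ERFs with a mean of at least 1 RPKM gave 19 loci. Of these, 9 lay above 0 and 10 below, while 48.8% of all genes tested lay below 0. This grouping was made after the values were seen and carries no test. All 3 class A loci (Pti4, ERF.A1 and ERF.A2) lay above 0, from 0.37 to 2.09, and all 3 class C loci (ERF1, Pti5 and ERF.C3) lay above 0, from 0.25 to 2.50, with an interval of the ratio that spanned 1 for ERF.C3. All 3 class B loci (ERF.B1, ERF.B2 and ERF.B3) lay below 0, from -1.54 to -0.82. The 3 class E loci lay below 0, from -0.72 to -0.10. Class F, whose members include repressors of transcription, had 5 loci between -0.64 and 0.05. Classes G and H had 1 locus each, Pti6 at 1.74 and ERF.H1 at 1.45. These classes hold other loci that were not listed. Listed AP2/ERF loci without a class letter were left out. They differed in both directions, with Solyc03g093550.1 at -0.92 and Solyc04g071770.2 at 1.18.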

How the data were processed

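RNA of red ripe fruit was sequenced as 1 library of an ALMT9 overexpression line and 1 of the wild type. The authors deposited RPKM per gene identifier, per the file headers. TopHat, a spliced read aligner, is named in the submitters' processing notes. The counting tool, genome build and strand setting are not given in the sources used for this work. Columns were matched to samples by sample titles.

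RPKM was compared as log2((overexpression + 1)/(wild type + 1)), a scale that understates ratios of low genes, with a minimum mean of 1 RPKM. A fixed size of 2-fold took the place of a test. Library totals and whole reads were recovered from the RPKM values. The totals are the largest that give whole gene lengths for most trial genes (74.7% of 2119, against 37.0% at 2 times these totals), and 24426 of 24429 genes above 0 then had whole reads in both libraries. Each gene was given the shortest length of at least 60 bp that fits, so its reads can be fewer than the true ones and intervals too wide. Exact 95% intervals cover counting error only. PCR copies are not independent molecules, so the intervals can also be too narrow. The recovery was tested on simulated data.

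The members, lists and rules were chosen with earlier results of these data known. By rule the named genes were the 7 members, the 3 identifiers on each side of them, and loci of the lists past 2-fold or highest in a list. The EIL, EBF, NR, AP2a, marker and class loci were added after their values were seen. Names outside the 7 rest on published locus assignments. RefSeq held a gene of the same name or synonym for 42 listed loci, on the chromosome of the identifier for 42, and 31 of 31 neighbouring pairs were in the same order. Calculations used Python 3.11.15, numpy 2.4.6, pandas 2.3.3, scipy 1.17.1 and matplotlib 3.10.9.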

Additional observations from a re-analysis of the deposited data

How the results depend on the processing

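The 6 alternatives of pseudocount and scaling bear on the size of the differences and are no check of their direction. A pseudocount added to both libraries cannot change a direction, and each scaling lowered the overexpression values. Only Pti4 and ERF1, both above 0, are thus moved towards 0 by scaling. The largest shift, -0.089 on the log2 scale, was smaller in size than either difference, so neither locus could have changed direction. ERF.B3 ranged from -1.13 to -0.83, ERF.B1 from -0.91 to -0.80, ERF.E1 from -0.81 to -0.65, ERF.E2 from -0.75 to -0.66, ERF.E4 from -0.18 to -0.10, Pti4 from 0.29 to 0.39 and ERF1 from 0.78 to 0.91. Scaling to equal sums of RPKM shifts overexpression values by -0.089 on the log2 scale. It gave a median of the 7 loci of -0.75, and -0.72 without the 100 highest genes in the sums. With equal sums of all genes, 3 of 19 upstream ethylene loci were at least 2-fold higher and 0 lower. Of 21 other AP2/ERF loci, 7 were then at least 2-fold higher and 2 lower. The share of all genes tested past 2-fold was 12.2%. With a pseudocount of 5, 0 of the 7 loci and 3 of 19 upstream ethylene loci were at least 2-fold apart. So were 5 of 21 other AP2/ERF loci and 1009 of all genes tested (5.84%). With a mean RPKM of at least 5, 5 of 15 other AP2/ERF loci and 1414 of 12855 genes (11.0%) were at least 2-fold apart. At 1.5-fold the counts were 5 of the 7 (1 higher and 4 lower) and 7 of 19 upstream ethylene loci (5 higher and 2 lower). They were 10 of 21 for the other AP2/ERF loci and 4982 (28.8%) for all genes tested. At 4-fold they were 0 of the 7, 0 of 19 upstream loci, 2 of 21 other AP2/ERF loci and 435 genes (2.52%). For ALMT9, pseudocounts of 0.1, 0.5 and 5 gave log2 differences of 6.89, 5.20 and 2.33, against 4.33 as reported. No paired analysis was possible because 1 library stands for each genotype, which also means that none could be left out. Depth limits ERF.B3 most among the 7, with at least 113 reads in the overexpression library.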

Other observations

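Defence genes that are often given as ERF targets did not differ in 1 direction. Of 10 loci entered, 8 had a mean of at least 1 RPKM, 4 of them at least 2-fold higher in the overexpression library and 1 at least 2-fold lower, against 8.09% and 4.30% of all genes tested. The locus entered for the pathogenesis-related protein PR1b, Solyc00g174340.1, had 1389 RPKM in the overexpression library and 94.3 RPKM in the wild type. A PR1 locus, Solyc09g007010.1, had 18.2 RPKM in the overexpression library and 0.422 RPKM in the wild type. Its values came from at least 42 reads and at least 1 read. The other locus entered for PR1, Solyc01g106620.2, was listed at 0 in both libraries. A glucanase locus, Solyc10g079860.1, had 84.2 RPKM in the overexpression library and 22.5 RPKM in the wild type. The other glucanase locus, Solyc01g008620.2, had 2.38 RPKM in the overexpression library and 3.19 RPKM in the wild type. The interval of its ratio, 0.519 to 1.07, spanned 1. A locus entered for osmotin, Solyc08g080640.1, had 1469 RPKM in the overexpression library and 4764 RPKM in the wild type. Its neighbour Solyc08g080650.1, also entered for osmotin, had 101 RPKM in the overexpression library and 44.9 RPKM in the wild type. Both chitinase loci were within 2-fold. Solyc10g055800.1 had 298 RPKM in the overexpression library and 459 RPKM in the wild type, for a ratio of 0.65 (counting interval 0.629 to 0.672), and Solyc10g055810.1 had 331 RPKM in the overexpression library and 337 RPKM in the wild type. Proteinase inhibitor II, a wound marker, had at most 0.0654 RPKM in either library.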
